A study of Mus musculus with 8 samples.

Results

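Glutathione is made from glutamate, cysteine and glycine, and most cells obtain the cysteine by importing cystine. The 10 genes described here cover that route: the cystine carrier (Slc7a11 and Slc3a2), glutathione synthesis (Gclc, Gclm and Gss), its recycling (Gsr), its conjugation to reactive compounds (Gsta4, Gstm1 and Gstp1) and the export of the conjugates (Abcc1). They were chosen by function, with earlier results of these data known. All 10 were found among the 22180 genes measured by probe sets with 1 gene symbol. Several of them, Gclc, Gclm, Gsr and Slc7a11 among them, are textbook targets of NRF2, the transcription factor of the oxidative stress response, and Gclc is also known as a target of the zinc sensor MTF1. In cartilage, glutathione is one of the main defences against the oxidants that inflamed chondrocytes produce.

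The cells were primary articular chondrocytes from the femoral condyles and tibial plateaus of wild-type ICR mice aged 5 days, grown as a monolayer. One group of 4 arrays came from cells infected with a null adenovirus (Ad-null) and the other group of 4 from cells infected with an adenovirus expressing the zinc transporter ZIP8 (Ad-Zip8). RNA was taken 24 h after infection, and the labels call the samples biological replicates without saying whether they came from separate animals. The p-values therefore rest on the spread among these arrays, which may be technical. All cells carried an adenovirus, so no array shows uninfected chondrocytes, and ZIP8 was supplied by a virus rather than by the cells' own gene.

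Values are log2 RMA values, a scale on which a difference of 1 is a doubling, and the array medians lay between 5.04 and 5.11. Changes are Ad-Zip8 minus Ad-null, with the standard error (SE) and the adjusted p from limma, a linear model fitted to all genes, and a gene was called at an adjusted p under 0.05. Slc39a8, the gene of ZIP8, was 30.4-fold higher with Ad-Zip8, with a limma adjusted p of 3.49e-09, so the arrays matched their labels. Over all genes 5.48% were called higher, 5.12% lower and 10.6% in either direction, and the median change was -0.02. The array Ad-Zip8 replicate 1 stood apart: of the 2352 called genes, 54.0% lay farthest from the Ad-null mean in that array, against 14.2% to 15.9% in each of the other 3 Ad-Zip8 arrays. For the called glutathione genes, and for related genes where it matters to the size or the call, values without it are given beside the result.

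Chondrocyte markers were strongly expressed in both groups, with a mean over 14 markers of 12.12 to 12.21 on the Ad-null arrays and 11.48 to 11.75 on the Ad-Zip8 arrays, and 11 of the 14 were called lower. In bulk RNA, fewer cells of a type and less RNA per cell cannot be told apart. The 15 macrophage markers averaged 4.92 to 5.05 and 5.04 to 5.13, with Cd14 and Cd68 higher, Laptm5 lower and the other 12 not past the test. Their Ad-Zip8 means ran from 3.22 (Ptprc) to 7.43 (Cd68), and 7 of the 15, Cd68, Cd14, Cx3cr1, Laptm5, C1qa, Fcer1g and Csf1r, lay above the array medians. Of 6 adipocyte markers Fabp4 and Adipoq were higher and 4 did not pass: Plin1 (0.24), Lep (-0.03), Pck1 (-0.04) and Cidec (-0.25). Fabp4 went from 4.12 ± 0.84 to 6.90 ± 0.35 (SD, n = 4 each), and Adipoq from 3.83 to 4.18, below the array medians. Endothelial (8), muscle (8), red blood cell (2 measured) and osteoclast (7) markers gave no calls. The part of these cell types in the results below was not tested.

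Of the 10 glutathione genes, 5 rose with Ad-Zip8 (Slc7a11, Gsta4, Abcc1, Gsr and Gclc), against 5.48% of all genes called higher. None was called lower, against 5.12% of all genes, and 5 did not pass the test. An unadjusted limma p under 0.05 was found for 8 of the 10, against 22.7% of all genes. The median change over the 10 was 0.44, and 8 were positive, against 45.9% of all genes. In 7 of the 10 the groups did not overlap, which was so for 17.6% of all genes. Because the set was chosen with earlier results of these data known, these shares describe it and do not test it. All changes were modest: the largest was 1.52-fold and the smallest among the called genes 1.35-fold. Ad-Zip8 replicate 1 gave the highest Ad-Zip8 value for 6 of the 10 genes. Without that array 4 were called, with Gsr at an adjusted p of 0.0601 in the same limma fit.

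**Figure D1:**
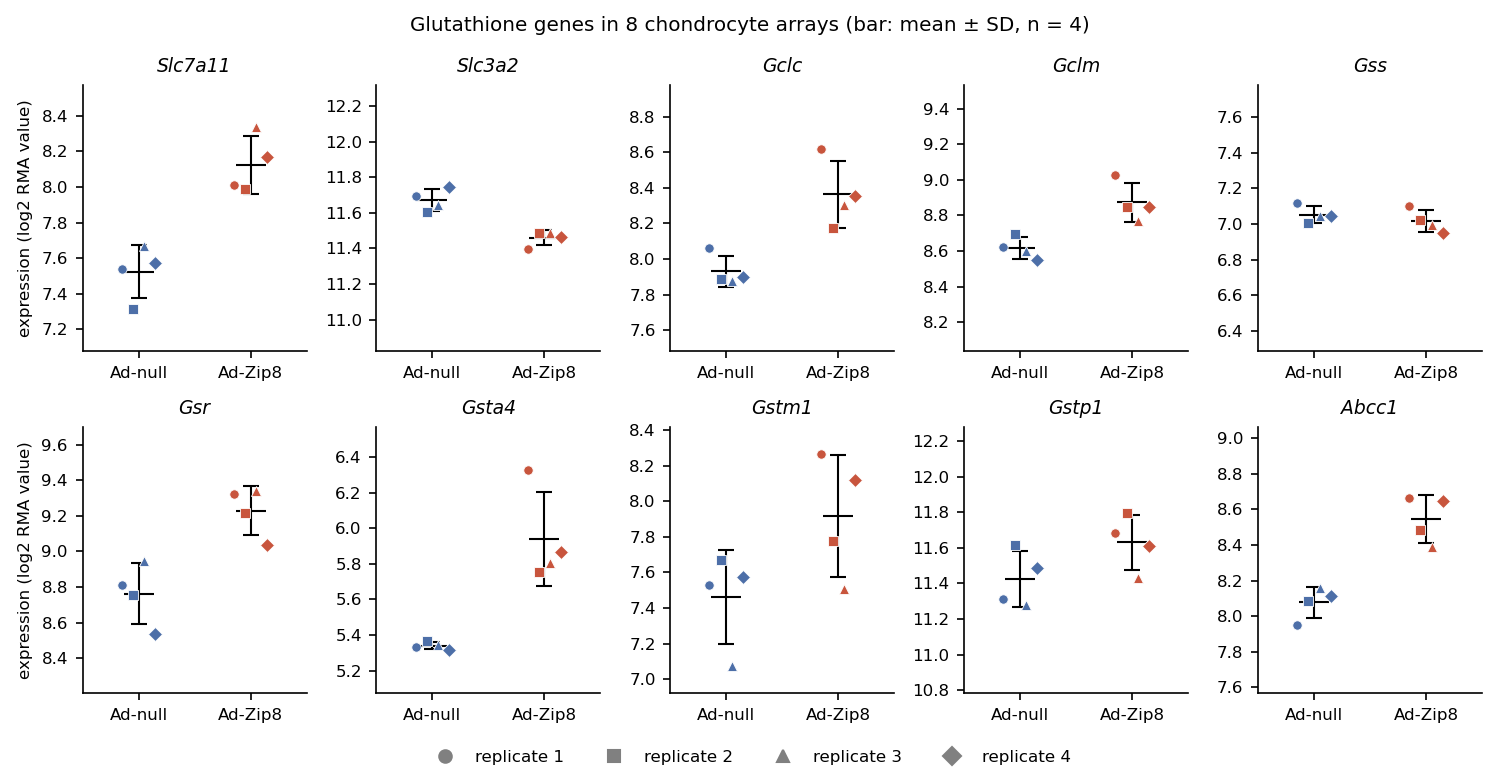
Expression of the 10 glutathione genes on the log2 RMA scale in each array, Ad-null in blue and Ad-Zip8 in red, with marker shape giving the replicate number, bars giving the mean ± SD (n = 4) and every panel spanning the same log2 range. Groups separate in 7 panels and overlap in Gss, Gstm1 and Gstp1, and the lowest Gstm1 value of each group is in replicate 3.

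Slc7a11 encodes xCT, the light chain that carries cystine into the cell in exchange for glutamate. Its Ad-null values were 7.54, 7.31, 7.67 and 7.57 in replicates 1 to 4. The Ad-Zip8 values were 8.01, 7.99, 8.34 and 8.17. Every Ad-Zip8 array was above every Ad-null array, with means of 7.52 ± 0.15 and 8.13 ± 0.16 (SD, n = 4 each). The gene rose 1.52-fold (log2 change 0.60, SE 0.11, 95% interval 0.37 to 0.84, limma adjusted p = 0.00494), and it rose by 0.64 without Ad-Zip8 replicate 1 (limma adjusted p = 0.0104). A further, dim Slc7a11 probe set with an Ad-null mean of 3.73 changed by 0.35 (SE 0.11) and did not pass over all probe sets with 1 symbol (limma adjusted p = 0.0694).

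The Slc7a11 promoter is shown because its region upstream of the start carries a pair of one motif. In the RefSeq promoter table (build GRCm38.p6), which held 6 of the 10 genes (not Gclc, Gsr, Gsta4 or Abcc1), the 250 bases before each start were searched on both strands for 3 motifs. These were the core of the antioxidant response element, bound by NRF2 (TGACNNNGC, in 10.2% of 32851 such windows), the core of the metal response element, bound by MTF1 (TGCACNC or TGCGCNC, in 21.4%), and the core of the C/EBP-ATF element, bound by ATF4 with C/EBP factors (TGATGNAA, in 3.45%). The Slc7a11 window, chr3:50443614-50443863 on the minus strand, held the C/EBP-ATF core at 66 to 59 bases before the start and, on the opposite strand, at 47 to 40 bases, without overlap. It held neither of the other cores. Capitals mark the matches, printed 5′ to 3′ on the gene's strand.
Slc7a11: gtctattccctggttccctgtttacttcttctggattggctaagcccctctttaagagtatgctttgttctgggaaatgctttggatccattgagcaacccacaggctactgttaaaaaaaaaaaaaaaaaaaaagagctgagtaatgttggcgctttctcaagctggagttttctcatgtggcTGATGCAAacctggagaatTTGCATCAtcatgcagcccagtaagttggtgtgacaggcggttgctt
A match is a description of these letters and does not show that a factor binds there. Variants of the cores and bases outside the 250 were not searched, so a gene without a match may still have a site. The windows of Slc3a2, Gss and Gstp1 held none of the 3 cores, and both Gstm1 windows held the metal response core alone, at the same site.

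Slc3a2 encodes 4F2hc, the heavy chain that brings xCT and several other amino acid carriers to the cell surface. Its Ad-null arrays read 11.69, 11.60, 11.64 and 11.74 in replicates 1 to 4. With Ad-Zip8 they read 11.40, 11.49, 11.49 and 11.46. All 4 Ad-Zip8 values lay below all Ad-null values, by 1.16-fold on average, yet the change of -0.21 (SE 0.07, 95% interval -0.36 to -0.06) did not pass (limma adjusted p = 0.0802). It passed as lower when limma's variance prior followed expression, with its robust option also on (adjusted p = 0.00463), and when dim genes were left out (0.0198).

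The difference between the carrier's light and heavy chain was tested as 1 of 6 pairs. The change of Slc7a11 exceeded that of Slc3a2 by 0.81 (SE 0.10), which gave the smallest p that 4 against 4 arrays allow (two-sided exact permutation p = 0.0286) and an adjusted exact permutation p of 0.0857 over the 6 pairs. No pair passed after this adjustment. A pair at the smallest p could pass only if several others also reached that p, so not passing says little about a pair.

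The other light chains that pair with Slc3a2 did not follow Slc7a11. Of 5 measured, 3 fell, none rose and 2 did not pass, where 5.12% of all genes were called lower and 5.48% higher. Slc7a5, which encodes LAT1, a carrier of large neutral amino acids, had Ad-null values of 11.88, 11.83, 11.79 and 11.79. Its Ad-Zip8 values of 11.12, 11.32, 11.24 and 11.35 were all lower, a fall of 1.48-fold (log2 change -0.56, SE 0.07, limma adjusted p = 9.49e-04). Slc7a7, which encodes y+LAT1, a carrier of cationic and neutral amino acids, went from 7.93 ± 0.26 to 7.21 ± 0.12 (SD, n = 4 each), 1.64-fold lower without overlap (limma adjusted p = 0.00509). Slc7a8, which encodes LAT2, fell 1.36-fold from 6.07 ± 0.14 to 5.62 ± 0.08 (SD, n = 4 each; limma adjusted p = 0.00933). Slc7a6 changed by 0.07 (SE 0.08) and Slc7a10 by -0.03 (SE 0.12), with overlapping groups. Slc7a6, Slc7a8 and Slc7a10 are named to complete this group, after their values were seen.

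**Figure D2:**
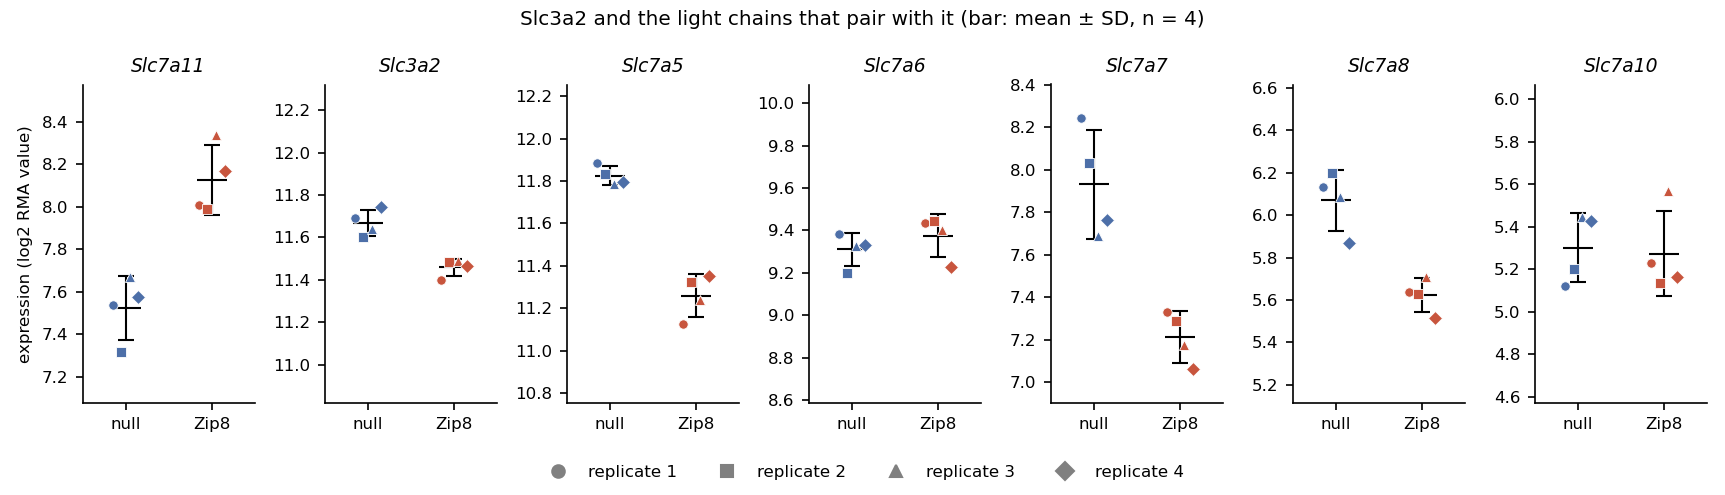
Expression of Slc3a2 and 6 light chain genes on the log2 RMA scale in each Ad-null (blue) and Ad-Zip8 (red) array, with marker shape giving the replicate number, bars giving the mean ± SD (n = 4) and every panel spanning the same log2 range. Slc7a11 is higher in every Ad-Zip8 array, whereas Slc7a5, Slc7a7 and Slc7a8 are lower in every one.

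Of the 8 other amino acid carrier genes measured, 2 fell, 1 rose and the other 5 did not pass, among them 3 genes of other cystine carriers. These 3, Slc3a1, Slc7a9 and Slc7a13, are named after their values were seen. Their Ad-null means of 5.11, 4.13 and 3.22 lay near or below the array medians, so the lack of a call says little. Slc1a1 encodes EAAC1, which takes up glutamate and cysteine, both precursors of glutathione. Its Ad-null values were 8.280, 8.004, 8.226 and 8.216, and its Ad-Zip8 values 6.948, 6.950, 7.104 and 7.304. The gap between the groups was far wider than their spread, a fall of 2.15-fold (log2 change -1.10, SE 0.10, limma adjusted p = 1.13e-04). Slc1a4, a carrier of alanine, serine and cysteine, fell 1.60-fold (SE 0.07 on the log2 scale, limma adjusted p = 2.34e-04), while the glutamate carrier gene Slc1a3 rose 1.47-fold with overlapping groups (limma adjusted p = 0.0352). Slc1a3, named after its value was seen, did not pass without any 1 of 6 arrays, with adjusted p values up to 0.1002 in the fit without Ad-Zip8 replicate 1. Over the whole transport list of 13 genes, 5 fell, 1 rose and the remaining 7 did not pass. Of all genes, 5.12% were called lower and 5.48% higher. The list's median change was -0.21, against -0.02 over all genes.

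Gclc and Gclm encode the catalytic and the modifier subunit of glutamate-cysteine ligase, the rate-limiting enzyme of glutathione synthesis. Gclc read 8.06, 7.89, 7.88 and 7.90 with Ad-null. It read 8.62, 8.18, 8.30 and 8.36 with Ad-Zip8. The groups did not overlap, though replicate 1 was the highest array in each, and the gene rose 1.35-fold (log2 change 0.43, SE 0.10, 95% interval 0.21 to 0.66, limma adjusted p = 0.0222). Without Ad-Zip8 replicate 1 the change was 0.35 (limma adjusted p = 0.0427). The call ended without Ad-null replicate 2 (0.0595), 3 (0.0580) or 4 (0.0610), without Ad-Zip8 replicate 4 (0.0529), or when limma was run over every probe set (0.0632).

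Gclm read 8.62, 8.69, 8.60 and 8.55 with Ad-null. It read 9.02, 8.85, 8.77 and 8.85 with Ad-Zip8. All 4 Ad-Zip8 arrays were higher, with a mean difference of 1.20-fold (log2 change 0.26, SE 0.08, 95% interval 0.09 to 0.43), but the gene did not pass (limma adjusted p = 0.0648). It passed as higher with a variance prior that followed expression (adjusted p = 0.0138), with dim genes left out (0.0182) and with quantile normalization repeated (0.0496). The change of Gclc exceeded that of Gclm by 0.17 (SE 0.08), which did not pass (exact permutation p = 0.0857, 0.129 adjusted over the 6 pairs).

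The Gclm promoter is shown because it was the only one of the 6 genes' windows to hold the antioxidant response core. The window, chr3:122245307-122245556 on the plus strand (RefSeq, GRCm38.p6), had that core on the opposite strand at 134 to 126 bases before the start. The metal response core lay on the opposite strand at 138 to 132 bases, sharing 3 bases with it, and again at 72 to 66 bases. Capitals mark these matches.
Gclm: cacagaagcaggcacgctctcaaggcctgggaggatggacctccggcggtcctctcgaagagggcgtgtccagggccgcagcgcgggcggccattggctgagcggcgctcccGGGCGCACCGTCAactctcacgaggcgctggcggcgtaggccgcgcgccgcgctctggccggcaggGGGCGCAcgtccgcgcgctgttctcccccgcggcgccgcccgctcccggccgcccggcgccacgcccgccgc

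Gss encodes glutathione synthetase, which adds glycine in the second step. Its Ad-null values were 7.118, 7.004, 7.047 and 7.046, and its Ad-Zip8 values 7.101, 7.024, 6.997 and 6.950. The groups overlapped throughout, with a change of -0.04 (SE 0.07, 95% interval -0.19 to 0.12, limma adjusted p = 0.817). The change of Gclc exceeded that of Gss by 0.47 (SE 0.08), at the smallest p possible (exact permutation p = 0.0286, 0.0857 adjusted over the 6 pairs).

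Gsr encodes glutathione reductase, which returns oxidised glutathione to its reduced form with NADPH. Ad-null arrays read 8.81, 8.76, 8.95 and 8.54. Ad-Zip8 arrays read 9.32, 9.21, 9.34 and 9.04. The groups were separated by a narrow margin, since Ad-null replicate 3 came close to Ad-Zip8 replicate 4, and same-numbered arrays differed by 0.39 to 0.51. Gsr rose 1.38-fold (log2 change 0.47, SE 0.10, 95% interval 0.23 to 0.70, limma adjusted p = 0.0191). Besides the fit without Ad-Zip8 replicate 1, the call ended without Ad-Zip8 replicate 3 (0.0526) and over every probe set (0.0561).

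Among the transferases, which attach glutathione to electrophiles, Gsta4 rose and Gstm1 and Gstp1 did not pass. Gsta4, an alpha class enzyme best known for clearing the lipid peroxidation product 4-hydroxynonenal, read 5.33, 5.36, 5.35 and 5.32 with Ad-null. With Ad-Zip8 it read 6.33, 5.75, 5.80 and 5.87. The Ad-null arrays were nearly equal (SD 0.02, n = 4), not far above the array medians, and the Ad-Zip8 spread (SD 0.26, n = 4) came mostly from replicate 1. The rise was 1.51-fold (log2 change 0.60, SE 0.12, 95% interval 0.33 to 0.86, limma adjusted p = 0.0105), and 0.47 on the log2 scale without Ad-Zip8 replicate 1 (limma adjusted p = 0.00440).

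Gstm1, a mu class enzyme, was the most variable of the 10 genes. Its Ad-null values were 7.53, 7.67, 7.07 and 7.58, and its Ad-Zip8 values 8.27, 7.77, 7.51 and 8.12. Replicate 3 was lowest in each group, so the groups overlapped although each Ad-Zip8 array exceeded its same-numbered Ad-null array, by 0.11 to 0.74. The change of 0.45 (SE 0.18, 95% interval 0.05 to 0.86, 1.37-fold) did not pass (limma adjusted p = 0.161), and it passed in the fit with the replicate block (limma adjusted p = 0.0489).

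Gstp1, the pi class enzyme, read 11.31, 11.62, 11.28 and 11.49 with Ad-null. It read 11.68, 11.80, 11.43 and 11.61 with Ad-Zip8. The groups overlapped and the change of 0.21 (SE 0.11, 95% interval -0.03 to 0.44) did not pass (limma adjusted p = 0.285). A probe set shared between Gstp1 and its near-identical neighbour Gstp2 gave a change of 0.18 (SE 0.08). Whether the other probe sets of mu and pi class genes also read related family members was not tested, so their values may be shared. The 3 differences between Gsta4, Gstm1 and Gstp1 in response were 0.14, 0.39 and 0.25 (Gsta4 over Gstm1, Gsta4 over Gstp1, Gstm1 over Gstp1), and none passed (adjusted exact permutation p of 0.400, 0.129 and 0.309).

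Abcc1 encodes MRP1, the pump that exports glutathione conjugates. Ad-null arrays read 7.95, 8.09, 8.16 and 8.11. Ad-Zip8 arrays read 8.66, 8.48, 8.39 and 8.65. Every Ad-Zip8 array was higher, and the gene rose 1.38-fold (log2 change 0.47, SE 0.09, 95% interval 0.28 to 0.66, limma adjusted p = 0.00679). Without Ad-Zip8 replicate 1 the rise was 0.43 (limma adjusted p = 0.0237).

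**Figure D3:**
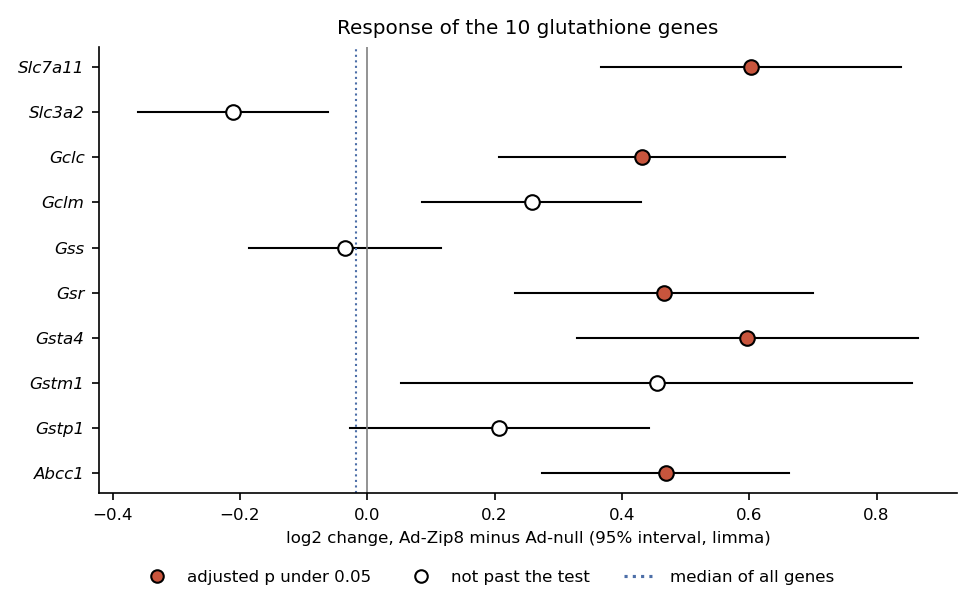
Log2 change (Ad-Zip8 minus Ad-null) of the 10 glutathione genes with limma's 95% interval, filled where the adjusted p was under 0.05, with a dotted line at the median of all genes (-0.02). The 5 filled points lie between 0.43 and 0.60, Slc3a2 lies below zero, and the intervals of Gss and Gstp1 cross zero.

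The 5 genes whose centred values over the 8 arrays were closest to those of Slc7a11, the glutathione gene with the smallest p, were Stip1, Zc2hc1a, Fam162a, Il6st and Ibsp. Their root mean square difference from Slc7a11 was 0.08 to 0.10 on the log2 scale. Stip1 (a co-chaperone of HSP70 and HSP90) changed by 0.55, Zc2hc1a by 0.62, Fam162a by 0.68, Il6st (the gp130 receptor subunit) by 0.56 and Ibsp (bone sialoprotein) by 0.58. All 5 were called higher, which follows largely from choosing them by closeness to Slc7a11. None was another of the 10 glutathione genes.

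Of 19 further transferase genes measured, 3 rose (15.8%, against 5.48% of all genes), none fell (against 5.12%) and the other 16 did not pass. Their median change was 0.14, and 15 were positive. The microsomal transferase gene Mgst2 rose 1.75-fold (log2 change 0.80, SE 0.13, limma adjusted p = 0.00309), from 5.92 ± 0.19 to 6.72 ± 0.22 (SD, n = 4 each). The omega class gene Gsto1 rose 1.36-fold (limma adjusted p = 0.00604) and the theta class gene Gstt1 1.32-fold (limma adjusted p = 0.00556). All 3 were without overlap between the groups, and each class had at least 1 other member that did not pass. The changes without Ad-Zip8 replicate 1 were 0.73 for Mgst2, 0.44 for Gsto1 and 0.40 for Gstt1, all past the test. The 5 other mu class genes measured lay between -0.07 and 0.37, and the 2 other pi class genes between 0.10 and 0.15, with none past the test. With the replicate block, Gstm2 passed as higher (limma adjusted p = 0.0365), a gene named after its value was seen.

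Among 9 measured genes of enzymes that use glutathione outside conjugation, 1 was called higher, where 5.48% of all genes were. Glrx encodes glutaredoxin 1, which removes glutathione from protein thiols. It read 8.24, 8.15, 8.14 and 8.16 with Ad-null and 9.38, 9.15, 8.87 and 9.09 with Ad-Zip8. The rise was 1.93-fold (log2 change 0.95, SE 0.10, limma adjusted p = 2.78e-04), larger than that of any of the 10 glutathione genes by value, though that difference was not tested. Without Ad-Zip8 replicate 1, the highest array, the change was 0.87 (limma adjusted p = 5.74e-04). The other 8 measured genes of this list did not pass, among them the 3 other glutaredoxins.

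On the breakdown side, 1 of 13 genes fell and 12 did not pass, where 5.12% of all genes were called lower. The gene that fell was Chac1, whose product degrades glutathione inside the cell, from 9.18 ± 0.11 to 8.56 ± 0.08 (SD, n = 4 each), 1.53-fold lower (limma adjusted p = 9.73e-04). Oplah, the 5-oxoprolinase gene, named after its value was seen, changed by 0.35 and did not pass (limma adjusted p = 0.0789). It passed as higher with the replicate block (0.0499), with dim genes left out (0.0293), with the variance prior that followed expression (0.0258) and without Ad-Zip8 replicate 3 (0.0440). In precursor supply, 1 of 11 rose and 1 fell, against 5.48% and 5.12% of all genes. Single calls in lists this short say little about the lists. Cdo1, which encodes the cysteine dioxygenase that diverts cysteine into taurine and sulfate, rose 2.24-fold (log2 change 1.17, SE 0.21, limma adjusted p = 0.00603), with its highest value (8.52) in Ad-Zip8 replicate 1 and a rise of 0.98 without that array. Mtr, the methionine synthase gene, fell 1.32-fold (limma adjusted p = 0.0389) but did not pass in 6 of the 8 fits with 1 array left out, its adjusted p reaching 0.106 without Ad-null replicate 4. The 7 genes of the methionine cycle and transsulfuration, Mtr included, lay between -0.40 and 0.06.

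NADPH, the reductant that Gsr needs, comes in part from the pentose phosphate pathway. Of 10 measured supply genes 2 rose and 1 fell, against 5.48% and 5.12% of all genes, and the other 7 did not pass. Pgd, the pathway's second dehydrogenase, rose 1.55-fold (log2 change 0.63, SE 0.10, limma adjusted p = 0.00271). Nadk, the kinase that makes NADP from NAD, rose 1.53-fold (log2 change 0.61, SE 0.08, limma adjusted p = 7.98e-04). Leaving out Ad-Zip8 replicate 1 gave 0.55 for Pgd and 0.56 for Nadk, both past the test. The mitochondrial dehydrogenase gene Idh2 fell 1.23-fold (limma adjusted p = 0.0343), a call that ended with the replicate block (0.0682) and in 7 of the 8 fits with 1 array left out (0.0943 without Ad-Zip8 replicate 1).

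Beside Abcc1, 6 further Abcc pumps were measured, of which Abcc4 rose and Abcc5 fell. Abcc4, whose product MRP4 exports prostaglandins, cyclic nucleotides and some conjugates, rose 1.59-fold (log2 change 0.67, SE 0.10, limma adjusted p = 0.00265). Abcc5 fell 1.30-fold (log2 change -0.38, SE 0.07, limma adjusted p = 0.00865). In both genes the groups did not overlap, and without Ad-Zip8 replicate 1 they changed by 0.58 and -0.41, both past the test. The other 7 of the 9 measured efflux and mitochondrial carrier genes did not pass. With 5.48% of all genes called higher and 5.12% lower, 1 call each way says little about this list.

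The 2 transcription programmes best known to drive Slc7a11 were read from their own lists. Among 17 genes of the NRF2 list outside the glutathione pathway, 2 rose (Hmox1 by 0.75 and Txnrd1 by 0.47 on the log2 scale) and 15 did not pass. Of all genes, 5.48% were called higher. The list had a median change of 0.22, with 14 positive. Without Ad-Zip8 replicate 1 the changes of Hmox1 and Txnrd1 were 0.61 and 0.41, both past the test. Nfe2l2, the gene of NRF2, changed by 0.22 (SE 0.07, limma adjusted p = 0.0634) and is named after its value was seen. The count of NRF2 genes called was 3 with the replicate block, 4 without Ad-Zip8 replicate 3, 5 with repeated quantile normalization, 8 with the variance prior that followed expression and 9 with dim genes left out. Over all genes, 1216 of 22180 were called higher as reported, 1439 with that variance prior and 1297 of 11090 without dim genes. They were 1278 with the replicate block, 1119 without Ad-Zip8 replicate 3 and 1272 with repeated quantile normalization.

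The ATF4 arm, 14 genes with a median change of -0.23, had 2 that rose, 4 that fell and 8 not past the test. Of all genes, 5.48% were called higher and 5.12% lower. Atf4 fell 1.23-fold (limma adjusted p = 0.0300), and Cebpb, which encodes a C/EBP factor and is induced by many other signals, rose 2.63-fold (log2 change 1.39, SE 0.09, limma adjusted p = 1.73e-05). Ddit4, which encodes an inhibitor of mTORC1, rose 1.47-fold (limma adjusted p = 0.00461). Cebpb changed by 1.35 and Ddit4 by 0.52 without Ad-Zip8 replicate 1, both past the test. Chac1, given above, is also in this list. The fall of Atf4 did not pass in 6 of the 8 fits with 1 array left out, its adjusted p reaching 0.0820 without Ad-Zip8 replicate 1. The number of ATF4 genes called lower was 1 when replicate 1 or 4 of either group was omitted. It was 2 when replicate 2 of either group or replicate 3 of Ad-null was omitted, and 8 with the variance prior or the dim gene filter. Over all genes, those called lower went from 1136 to 1688 with that prior and 1625 of 11090 with that filter. With 1 array left out they were 708 to 923.

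**Figure D4:**
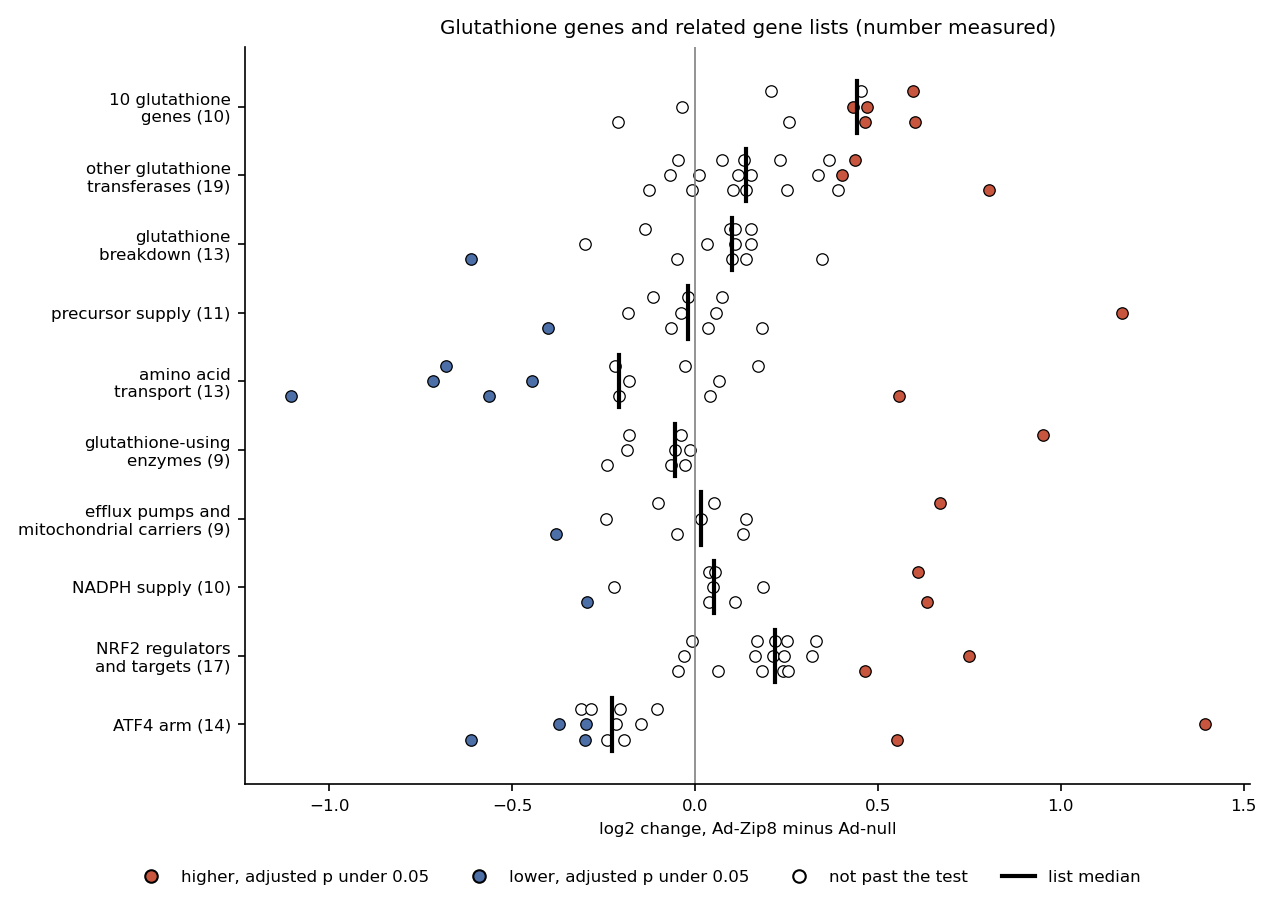
Log2 change (Ad-Zip8 minus Ad-null) of each gene in the glutathione set and in 9 related lists, with the number measured in brackets, red where called higher, blue where called lower and open where not past the test, and a black bar at each list's median. The glutathione set has the highest median (0.44), and the transport and ATF4 lists have the lowest (-0.21 and -0.23). The set and the lists were chosen with earlier results of these data known.

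How firmly each glutathione gene was called differed between genes. Slc7a11, Gsta4 and Abcc1 passed in the reported fit and in all 17 alternatives, with adjusted p values of at most 0.0189, 0.0349 and 0.0260. For Gsta4, however, the dim gene filter is no separate check. That filter kept genes with a mean over the 8 arrays above 5.637, the median of all gene means. Gsta4 (5.34 with Ad-null, 5.94 with Ad-Zip8) was kept by a narrow margin, and only through its Ad-Zip8 arrays. Gsr passed in 14 and Gclc in 12 of the 17. Gclm passed in 3, Slc3a2 in 2 and Gstm1 in 1, whereas Gss and Gstp1 passed in none.

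**Figure D5:**
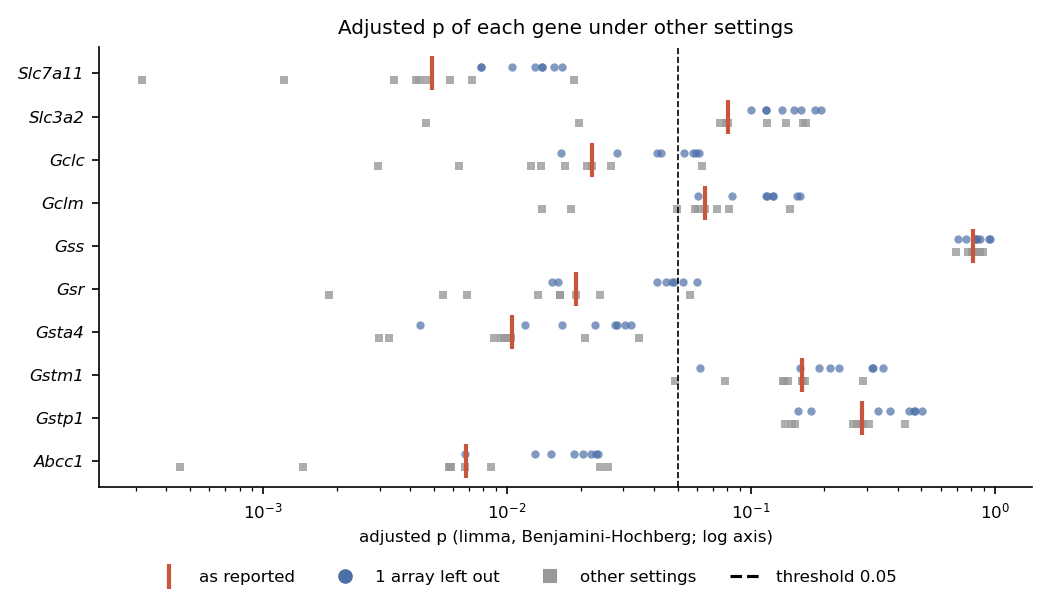
Adjusted p (limma, log axis) of each of the 10 glutathione genes as reported (red bar), with 1 array left out (blue circles) and under other settings (grey squares), with the threshold of 0.05 dashed. Slc7a11, Gsta4 and Abcc1 stay left of the line throughout, Gclc and Gsr lie on both sides of it, and Gss and Gstp1 stay right of it.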

How the data were processed

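The authors deposited 1 log2 value per probe set and array. The submitters' processing notes name RMA, a method that corrects background and brings arrays to a common distribution. Differences in array values can be compressed at both ends of the scale. Of 41345 probe sets, 23521 had 1 gene symbol, 1814 with several symbols were left unnamed, and 16010 had no entry. Each of the 22180 genes was represented by its brightest probe set, by the mean of all 8 arrays. The groups were compared with limma 3.58.1 (R 4.3.3, lmFit and eBayes, two-sided, no covariates, no filter on dim genes), with Benjamini-Hochberg adjustment over all 22180 genes and a threshold of 0.05. Pairs of genes were compared by an exact permutation test over arrays of their difference in log2 values. The number of arrays limits the precision.

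The 10 genes and the lists were chosen with earlier results of these data known. Named were the 10 genes, Slc39a8, up to 4 called genes per list with the smallest adjusted p (all of those called where 2 or fewer were), and the 5 genes nearest to Slc7a11, leaving out predicted genes, small RNAs, receptor families of smell and immune receptor segments, apart from those said to be named after their values were seen. Both groups carry replicate numbers 1 to 4. Deviations from group means correlated at 0.11 to 0.37 between same-numbered arrays and at -0.27 to 0.16 otherwise, so the numbers were taken to pair the arrays in an alternative fit, a pairing inferred from the data. Alternatives were that replicate block, 3 rescalings, a filter on dim genes, a variance trend, array weights, averaged probe sets, a fit over all probe sets, and each array left out. A planned comparison of protein sequences was not run.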

Additional observations from a re-analysis of the deposited data

Results flagged for a closer look

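In the 125 genes of the glutathione set, its lists and Slc39a8, both groups of 4 arrays were examined for 1 array far from the other 3, by a gap above Dixon's 95% critical share of the group's range. This held in 15 of 250 groups (6%), and chance gives about 1 of 20. Among the 10 glutathione genes it held for Gclc with Ad-null, where replicate 1 (8.06) stood above the others and the gap was 0.866 of the range. With Ad-Zip8, replicate 1 stood apart in Txnrd1 (0.866 of the range), Nadk (0.845), Cdo1 (0.837), Idh2 (0.898) and Etfdh (0.885). Replicate 2 stood apart in Chac1 (0.895) and Glul (0.831), and replicate 3 in Lap3 (0.836) and Me1 (0.860). With Ad-null, replicate 1 stood apart in Glrx (0.846), replicate 3 in Taldo1 (0.952) and Mafg (0.845), and replicate 4 in Idh1 (0.933) and Bach1 (0.9003). Of the called genes among these, Idh2 alone lost its call without Ad-Zip8 replicate 1.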

How the results depend on the processing

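Of the 10 glutathione genes, 5 were called higher and 0 lower, against 5.48% and 5.12% of all genes. In limma 8 had an unadjusted p under 0.05, against 22.7% of all genes. Over 17 alternatives 3 to 6 were called higher, 3 of them when limma was run over all probe sets, and 4 to 5 with 1 array left out. With the variance trend or the dim gene filter 1 gene, Slc3a2, was called lower. With the replicate block 6 were called higher, Gstm1 being added (adjusted p = 0.0489), and the block left the other calls among the 10 genes as they were. In the lists it added Gstm2, Oplah and Blvrb as higher and ended the calls of Idh2 and Mthfd2. No change among the 10 genes or Slc39a8 (4.89 to 5.00) turned direction. Over the 9 related lists 13 genes were called higher and 12 lower. These counts were 20 higher and 17 lower with the dim gene filter, 21 and 18 with the variance trend, 12 and 7 over all probe sets, and 12 to 16 higher and 7 to 9 lower with 1 array left out. Over all genes, 1136 were called lower, with a range of 614 (all probe sets) to 1688 (variance trend), 1625 of the 11090 genes left by the dim gene filter, and 708 to 923 with 1 array left out, lowest without Ad-Zip8 replicate 1. Those over all genes called higher were 1216, with a range of 832 (all probe sets) to 1439 (variance trend), and 1297 of the 11090 genes left by the dim gene filter. With 4 pairs of arrays, the sign-flip form of the pair tests could not pass (adjusted exact p = 0.150 to 0.250 with the replicate block). Signal close to the array medians limits the sizes given for Gsta4 and Gstt1.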

Other observations

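The excess of one array was shared by the related genes. Of the 25 called genes of the 9 lists outside the 10 glutathione genes, 19 lay farthest from the Ad-null mean in Ad-Zip8 replicate 1, which is 76.0%, against 54.0% of all called genes. Among the 5 called glutathione genes this was so for 3 (Gclc, Gsta4 and Abcc1), and Slc7a11 and Gsr lay farthest in replicate 3. Slc39a8 itself read 11.16, 10.90, 11.24 and 11.20 in Ad-Zip8 replicates 1 to 4 (SD 0.15, n = 4). Whether the Slc39a8 level bears on the larger responses of replicate 1 was not tested.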
